A study of Salmo salar with 8 samples.

Results

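Transcripts of 4 inflammatory cytokines and of the cytokine signalling inhibitor SOCS1 were followed in adherent head kidney leukocytes (HKLs) of Atlantic salmon. The 5 genes are IL12B, IFNG, TNF, SOCS1 and IL1B, and they comprise every probe that carries 1 of these symbols in the study's list of probes that differed between the culture days. This gave 7 probes of the 2034 named probes in that list and of the 43689 probes on the array, that is 5 of 1449 named genes. Since the list was drawn from the Day 5 against Day 1 contrast (the study's paired SAM), the direction and the size of the members' change between days are descriptions here and carry no test. The same holds for the agreement of that change over fish, which a paired choice favours.

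HKLs were prepared from the head kidney, the main blood-forming organ of teleost fish, on a Percoll gradient, cultured in L-15 medium with serum and antibiotics, and rinsed so that adherent cells remained. Each of 4 fish gave 1 sample at Day 5 (120 h after seeding) and 1 at Day 1 (24 h), with no stimulus or genotype difference between them. The study began with 5 fish and left out Fish 5. It names a technical error in labelling, and elsewhere that the samples of Fish 5 did not cluster by day. Agreement over fish is thus among the 4 that were kept. A 44K salmonid array was used for each Cy5-labelled sample, with pooled RNA of all samples in Cy3 as the common reference and no dye swap. The values below are log2 ratios of sample over reference, with positive differences meaning higher at Day 5, and errors are SD over fish. For the other genes of the pathway lists, errors are instead the SE of the fit. Samples are mixtures of primary cells, so a larger number of cells of a type and more RNA per cell cannot be told apart.

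IL12B encodes the subunit shared by interleukin-12 and interleukin-23 in mammals, and interleukin-12 made by macrophages and dendritic cells drives T and NK cells to produce interferon-gamma (IFNG). Interferon-gamma in turn activates macrophages through JAK kinases, and SOCS1, which this signalling induces, blocks these kinases and so closes a feedback loop. TNF and interleukin-1 beta (IL1B) are early mediators of inflammation that act through NF-kB and AP-1 transcription factors.

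Transcript sequences are shown because both IL12B probes were designed on contigs with a shared sequence. The sequences of the probes themselves were not available, so whether either lies in the shared stretch is not known. Of both contigs, 399 bases were available and a stretch of 371 bases was identical, and both matched the same RefSeq gene, LOC106603888. The shared stretch holds a reading frame with no stop codon in the part available, and its first 300 bases are printed with the start codon in capitals. Beside it stand the 249 bases of the open frame of the contig behind a probe named TNF-ALPHA-1 (RefSeq gene tnf-alpha-1), which the symbol match left out although it is a TNF gene.
IL12B: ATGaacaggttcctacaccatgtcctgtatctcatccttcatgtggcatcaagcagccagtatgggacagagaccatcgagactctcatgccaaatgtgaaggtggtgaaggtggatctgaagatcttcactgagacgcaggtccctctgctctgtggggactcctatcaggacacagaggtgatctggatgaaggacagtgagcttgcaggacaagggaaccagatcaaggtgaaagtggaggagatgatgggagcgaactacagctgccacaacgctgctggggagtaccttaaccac
TNF-ALPHA-1: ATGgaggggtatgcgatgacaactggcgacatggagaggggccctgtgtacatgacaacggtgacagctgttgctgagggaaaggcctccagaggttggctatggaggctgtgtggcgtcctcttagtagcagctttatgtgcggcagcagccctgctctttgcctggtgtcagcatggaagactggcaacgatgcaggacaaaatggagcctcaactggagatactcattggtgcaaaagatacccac
The contigs of both IFNG probes were identical over all 399 bases available and matched the RefSeq gene ifng, so that neither pair of probes could be assigned to different gene copies here. Among the contigs read, the longest stretch shared by different genes was 10 bases. Contigs for the TNF and IL1B probes were not read here, so TNF was not compared with TNF-ALPHA-1.

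Across the members, 6 probes for IL12B, IFNG, TNF and SOCS1 averaged higher at Day 5 and the only IL1B probe averaged lower. Of the 7 probes, 5 were higher in every fish measured, 1 (IL1B) was lower in all 4 fish, and 1 IFNG probe was higher in 3 fish and lower in Fish 4. The share of all probes with the same direction in every fish was not taken. In limma's fit with fish as a block, 3 of the 7 probes passed an adjusted p of 0.05 (both IL12B probes higher and IL1B lower), against 1.54% of the 40699 tested probes (0.870% higher and 0.671% lower), and this count describes members that were chosen on the same contrast. With plain background subtraction, no background correction, an offset of 10 in place of 50 or slide as a fixed block in place of fish, 0 members passed. IL1B no longer passed when Fish 3 or Fish 4 was left out or when quality flags were ignored, and the IFNG probe C025R082 passed without Fish 4. With median centring in place of loess, 358 of all probes passed as higher and 540 as lower, against 354 and 273. The median change of all tested probes was 0.01. The values of the 2 days did not overlap for 3 probes that were higher at Day 5 and for IL1B, whereas 5.10% of 30092 probes with all 8 values lay wholly higher and 5.51% wholly lower at Day 5.

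**Figure D1:**
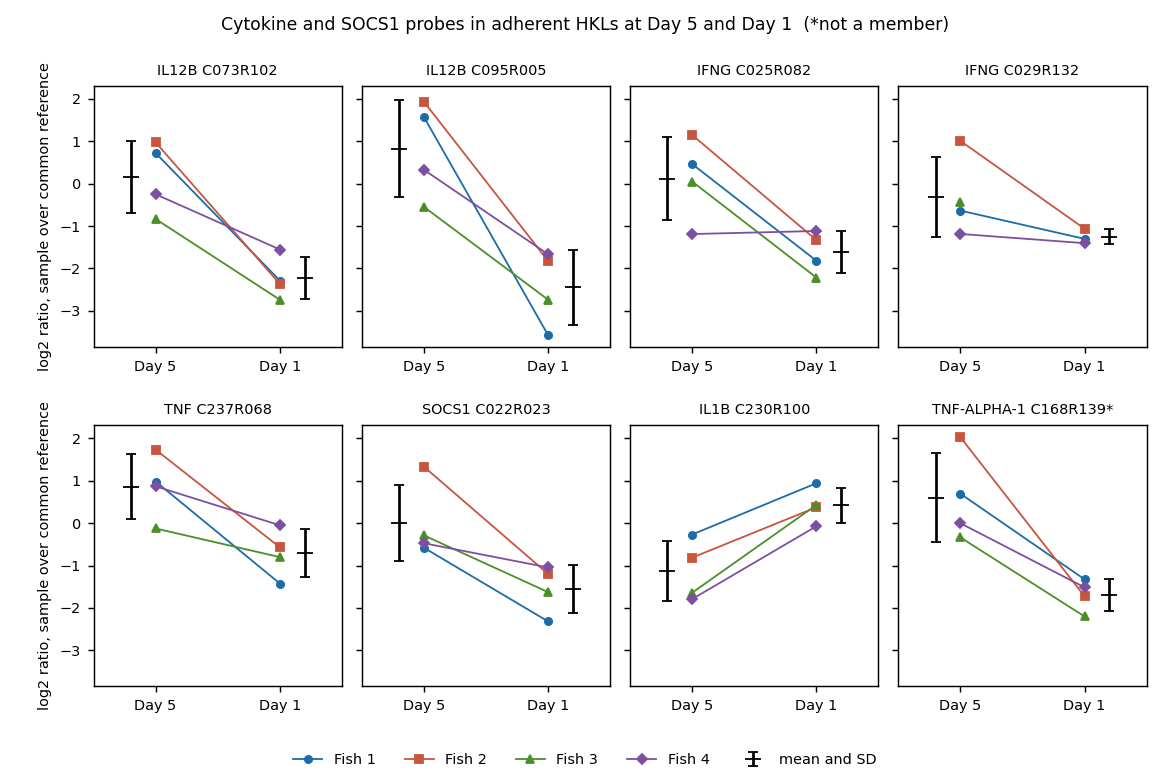
Log2 ratio of sample over common reference (vertical axis) at Day 5 and Day 1 for each member probe and for TNF-ALPHA-1, with a line for each fish and the mean and SD beside each day. The IL1B lines slope the opposite way to those of IL12B, TNF and SOCS1, and Fish 3 has no Day 1 value for the IFNG probe C029R132.

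The IL12B probe C095R005 had the largest change of the members. Its log2 ratios were 1.57, 1.93, -0.55 and 0.33 at Day 5 and -3.57, -1.83, -2.74 and -1.67 at Day 1 in Fish 1 to Fish 4. Every Day 5 value thus lay above every Day 1 value, with a gap of 1.12 between the days. The mean was 0.82 ± 1.14 at Day 5 and -2.45 ± 0.89 at Day 1 (SD, n = 4 each), and the change within fish was 3.27 ± 1.48, or 9.67-fold. It ran from 3.98-fold in Fish 4 to 35.5-fold in Fish 1. The Cy5 signal was 5850, 13168, 1597 and 3514 at Day 5 and 263, 1118, 568 and 869 at Day 1.

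The other IL12B probe, C073R102, gave log2 ratios of 0.72, 0.97, -0.83 and -0.25 at Day 5 and -2.29, -2.37, -2.74 and -1.55 at Day 1. The days again did not overlap, and the change was 2.39 ± 0.95 (n = 4), or 5.24-fold, with 2.47-fold in Fish 4 and 10.1-fold in Fish 2. In each of the 4 fish this change was smaller than that of C095R005, with differences (C073R102 minus C095R005) of -0.29 to -2.14 and a mean of -0.88 ± 0.85. The widest gap was in Fish 1, where the Day 1 spot of C095R005 held the lowest of all member log2 ratios. That array was read from the first scan of its slide, while the other 7 arrays came from the second scan, and its median Cy5 signal of 176 was the lowest of the 8, against up to 594. Whether the scan contributes was not tested. Without Fish 1, the change was 2.65 for C095R005 and 2.18 for C073R102.

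IFNG, the cytokine that interleukin-12 induces in T and NK cells, was measured by 2 probes. C025R082 had log2 ratios of 0.47, 1.15, 0.05 and -1.19 at Day 5 and -1.82, -1.33, -2.22 and -1.12 at Day 1. The values within Fish 1, Fish 2 and Fish 3 differed by 2.28, 2.48 and 2.27, while Fish 4 showed -0.07, so its Day 5 value fell among those of Day 1. The mean change was 1.74 ± 1.21 (n = 4), or 3.34-fold, and without Fish 4 it was 2.34.

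C029R132 had log2 ratios of -0.63, 1.01, -0.44 and -1.19 at Day 5, against -1.30, -1.06 and -1.40 at Day 1 in Fish 1, Fish 2 and Fish 4. The Day 1 spot of Fish 3 carried a quality flag and was left out. The change was 0.67, 2.07 and 0.22 in the 3 fish, with a mean of 0.99 ± 0.97 (n = 3), or 1.98-fold. Most of it came from Fish 2, since without that fish the change was 0.44. In the authors' processed values, all 4 fish were higher at Day 5 for both IFNG probes, with 1.81 ± 0.52 for C029R132 and 2.27 ± 1.43 for C025R082. The flagged spot has a value there, but missing values were imputed in that table, so it may not be a measured one. With quality flags ignored in the scanner values, the change of C029R132 was 1.01.

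SOCS1, the inhibitor of JAK kinases, had log2 ratios of -0.58, 1.33, -0.29 and -0.47 at Day 5 and -2.32, -1.20, -1.63 and -1.05 at Day 1. The days did not overlap, with a gap of 0.46. The change was 1.74, 2.53, 1.34 and 0.57 in Fish 1 to Fish 4, with a mean of 1.55 ± 0.82 (n = 4), or 2.92-fold. At Day 5, 3 fish lay between -0.58 and -0.29 and Fish 2 stood apart, and without Fish 2 the change was 1.22. SOCS1 was also the dimmest member, with a Cy5 signal above the negative-control limit of its array (mean plus 2 SD of 153 negative control spots) in 3 of 4 Day 5 samples and 2 of 4 Day 1 samples. At Day 5 this signal was 0.94, 3.71, 1.23 and 1.24 times the limit in Fish 1 to Fish 4.

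TNF was represented by C237R068, with log2 ratios of 0.98, 1.73, -0.13 and 0.87 at Day 5 and -1.42, -0.57, -0.80 and -0.05 at Day 1. All 4 fish were higher at Day 5, by 2.41, 2.31, 0.68 and 0.92, but the Day 5 value of Fish 3 lay below the Day 1 value of Fish 4 and the days overlapped. The mean change was 1.58 ± 0.91 (n = 4), or 2.98-fold. In the authors' processed values, on which the list was drawn, TNF had the smallest mean change relative to its SD among the 7 probes (1.59 ± 1.21, 0.28 to 2.62 over fish), so by this ratio it lay nearest to the edge of the list. Among the others, this ratio of mean to SD was 1.59 to 3.44, against 1.32 for TNF. Probes just outside the list carry no gene name in the sources used here.

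The TNF-ALPHA-1 probe, C168R139, moved the same way, with log2 ratios of 0.70, 2.03, -0.34 and 0.00 at Day 5 and -1.33, -1.73, -2.20 and -1.51 at Day 1. Its days did not overlap and the change was 2.29 ± 1.00 (n = 4), or 4.89-fold. The change of TNF minus that of TNF-ALPHA-1 averaged -0.71 ± 0.81 and was 0.39 in Fish 1 and between -0.59 and -1.45 in the other fish, so the 2 probes did not differ alike in every fish.

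IL1B, the only member that was lower at Day 5, had log2 ratios of -0.27, -0.81, -1.64 and -1.79 at Day 5 and 0.94, 0.37, 0.43 and -0.07 at Day 1. The days did not overlap, with a gap of 0.19 between the Day 5 value of Fish 1 and the Day 1 value of Fish 4. The changes were -1.21, -1.19, -2.07 and -1.72 in Fish 1 to Fish 4, with a mean of -1.55 ± 0.43 (n = 4), which is 2.92-fold lower. Their SD was the smallest of the 7 members, but not in the authors' processed values (0.70, against 0.52 for the IFNG probe C029R132). The probe remained well above background after the change, since its Cy5 signal was 2259 to 4629 at Day 5 and 6458 to 14524 at Day 1, or at least 4.78 times the negative-control limit of its array at Day 5 and at least 10.6 times at Day 1. The difference was therefore measured above background on both days.

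**Figure D2:**
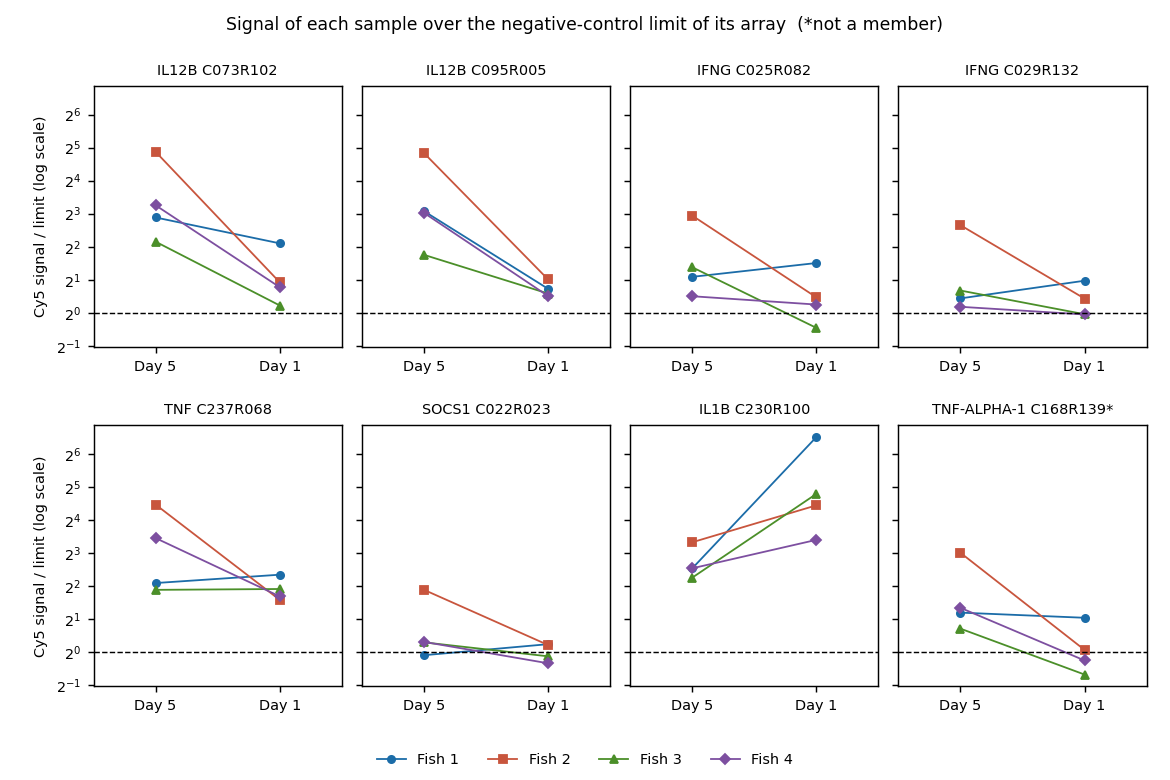
Cy5 signal of each sample divided by the negative-control limit of its array (vertical axis, log scale; the dashed line is the limit) at Day 5 and Day 1, with a line for each fish. IL12B, TNF and IL1B were above the limit in all samples, whereas SOCS1, IFNG and TNF-ALPHA-1 fell to or under it in some Day 1 samples, and SOCS1 in 1 Day 5 sample.

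Over all members, 27 of 28 sample spots at Day 5 and 23 of 28 at Day 1 exceeded the limit, so no probe lacked signal on all arrays of a day. The IL12B probes were nevertheless dim at Day 1, at 1.42 to 2.01 times the limit for C095R005 and 1.17 to 4.29 times for C073R102. In Fish 1 the limit itself was 693 at Day 5 and 159 at Day 1. For IFNG, TNF and SOCS1, the Cy5 signal of Fish 1 over the limit was therefore lower at Day 5 than at Day 1, although the log2 ratio of Fish 1 was higher at Day 5 for each of them.

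The members agreed in direction more closely than in size, but they were chosen by a paired comparison of these same fish, which favours such agreement. The 6 probes other than IL1B had a median change of 2.35 in Fish 1 (6 of 6 higher), 2.51 in Fish 2 (6 of 6), 1.91 in Fish 3 (5 of 5) and 0.75 in Fish 4 (5 of 6). Fish 1 and Fish 2 had the 2 largest changes in the 5 of these probes with values in all 4 fish, and the 2 smallest for IL1B. With the authors' processed values, Fish 1 and Fish 2 led in 5 of the 6 probes, the exception being C025R082, where Fish 3 had the largest change (3.68). For IL1B the pattern did not hold there, since Fish 2 (-1.03) and Fish 4 (-1.21) had the smallest changes, against -1.42 in Fish 1. Among all probes with 8 values and a mean change above 0, Fish 1 and Fish 2 led in 21.1%, and among those that limma called higher in 23.4%.

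Fish 2 had the highest Day 5 log2 ratio in all 6 probes other than IL1B, of which 5 have all 8 values, against 27.5% of the 15173 probes with a mean change above 0 and 44.5% of the 337 called higher. The lowest Day 5 value came from Fish 3 for IL12B and TNF, from Fish 4 for IFNG and from Fish 1 for SOCS1. The SD over fish was larger at Day 5 than at Day 1 in all 7 members, of which 6 have all 8 values, against 50.9% of all probes with 8 values. That share was not taken among probes with a mean change above 0, and most Day 1 signals of IL12B, IFNG and SOCS1 lay near the negative-control limit. The counts over fish are descriptions, since the members share arrays and 2 pairs of probes share a gene.

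**Figure D3:**
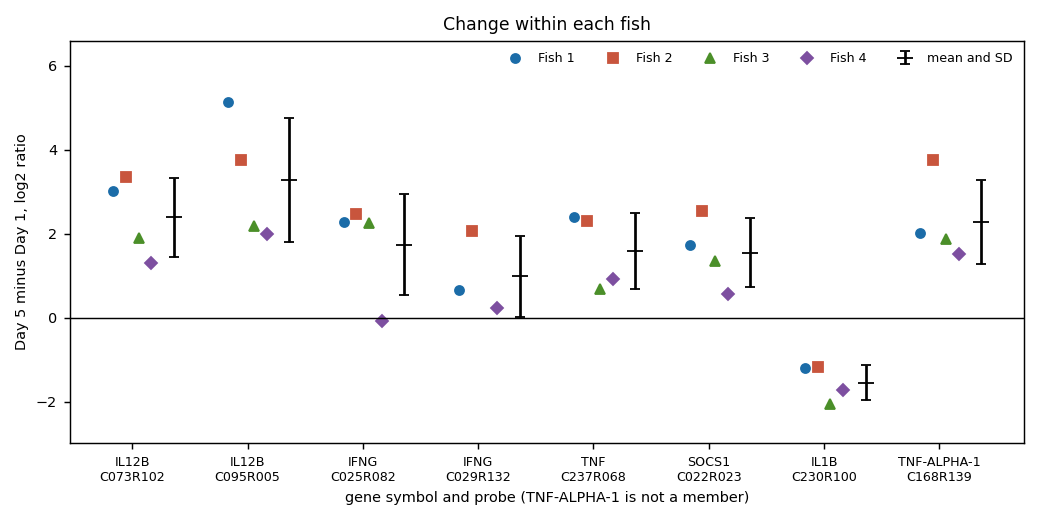
Day 5 minus Day 1 difference in log2 ratio within each fish (vertical axis) for each probe, with the mean and SD at the right of each group. Fish 1 and Fish 2 lie above Fish 3 and Fish 4 for the 5 probes that averaged higher and have values in all 4 fish, by little for the IFNG probe C025R082, and all 4 fish lie below 0 for IL1B.

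Differences between fish, which the choice of members did not use, were tested with limma's F test in the same fit, although its residual spread is shared with the contrast that chose them. None of the 7 probes passed (0 at an adjusted p of 0.05 and 0 at an unadjusted p of 0.05), against 0.00% of the 40339 probes tested at an adjusted p of 0.05 and 4.09% at an unadjusted p of 0.05. The smallest unadjusted p among the members was 0.068, for IL1B, in this limma F test. With 4 fish and 2 arrays each, a p that misses the threshold does not show that the fish were alike.

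The arrays lay on 3 slides, numbered here in the order of their labels. Fish 1 had both days on slide 1 together with Fish 2 at Day 1, Fish 3 had both days on slide 2 together with Fish 4 at Day 1, and the remaining Day 5 samples were on slide 3. Within slide 1, the changes of the 6 probes that averaged higher were 4.27 and 3.05 for IL12B, 2.04 and 0.55 for IFNG, 1.98 for TNF and 1.18 for SOCS1, and within slide 2 they were 1.66 and 1.31, 1.72 and 0.96, 0.30 and 1.05. IL1B changed by -0.93 within slide 1 and -1.82 within slide 2. Each of these values sets a single Day 5 sample against the mean of the slide's Day 1 samples, so it is not paired by fish. For the IFNG probe C029R132, the value within slide 2 sets Fish 3 at Day 5 against Fish 4 at Day 1. The directions were the same within both slides, and TNF was the member whose value within slide 2 was smallest.

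The other genes of these pathways could be named only through the study's list, so all of them were chosen on the contrast they describe and their counts are descriptions too. The counts below also include the members. These are IL12B and IFNG for interleukin-12 and interferon-gamma signalling, SOCS1 for the feedback inhibitors, and TNF and IL1B for TNF and interleukin-1 signalling. Among 25 probes of 14 genes of interleukin-12 and interferon-gamma signalling, 20 probes were higher and 5 lower, 5 passed the threshold as higher and 0 as lower, and the median change was 1.16. Besides both IL12B probes, those that passed included 1 for TAP1, a peptide transporter for MHC class I that interferon-gamma induces in mammals. TAP1 changed by 1.62 ± 0.31 (SE of the fit) at C100R014 and by 1.08 ± 0.29 at C096R025, which did not pass. Errors of all pathway genes that follow are likewise the SE of the limma fit and not the SD over fish. NLRC5, a regulator of MHC class I genes, had 1.76 ± 0.48, and the chemokine CXCL11 had 1.51 ± 0.46, without passing. Lower probes were those for GBP1, with -1.23 ± 0.30 at C247R088 and -0.51 ± 0.33 at C174R071, and for WARS, with -0.78 ± 0.30, also without passing. EOMES, a transcription factor of T and NK cells that promotes IFNG expression in mammals, had -1.46 ± 0.38 and did not pass. TBX21, a related factor, was not well above background in any Day 5 sample and was at least 1.83-fold lower, also without passing. Its Day 1 value in Fish 1 was missing, and the fold sets the means of the days against each other without pairing.

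Among 8 probes of 6 feedback inhibitors, 5 were higher and 3 lower, with a median change of 1.28, and 1 passed as higher and 0 as lower. It was a probe for USP18, an inhibitor of interferon receptor signalling (C106R044), with log2 ratios of -0.02, 0.58, 0.87 and 0.50 at Day 5 and -0.65, -1.75, -1.38 and -0.87 at Day 1. Its change was 1.64 ± 0.36 (SE of the fit), beside 1.55 for SOCS1. The phosphatases DUSP2 and DUS6 (as the list spells it), which dampen MAP kinase signalling, had 1.32 ± 0.33 and 1.24 ± 0.31. TGFB1, a cytokine that restrains inflammation, and TSC22D3, a glucocorticoid-induced repressor of NF-kB and AP-1, had values between -1.02 and -1.10.

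Of 22 probes of 16 genes of TNF and interleukin-1 signalling, 11 were higher and 11 lower, 4 passed as higher and 6 as lower, and the median change was -0.08. Over all tested probes, 354 passed as higher and 273 as lower. The chemokines CCL20 and CCL2, which NF-kB induces, passed as higher. CCL20 had log2 ratios of 0.31, 0.87, 1.27 and 0.28 at Day 5 and -4.69, -2.39, -2.66 and -1.78 at Day 1, and since it was not well above background in any Day 1 sample its change is given as at least 5.90-fold higher. CCL2, which attracts monocytes, changed by 1.91 ± 0.40 (SE of the fit), with an SD over fish of 1.07. Of the 3 probes for the collagenase MMP13, 1 passed as higher with 2.74 ± 0.50 over 3 fish and 1 had 0.87 ± 0.36 over 3 fish without passing. The third probe was not well above background in any Day 5 sample and was at least 1.91-fold lower, without passing.

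The lower probes that passed were, besides IL1B, for JUN, a subunit of AP-1, and for the decoy receptors TNFRSF6B and TNFRSF11B, which bind ligands of the TNF family without signalling. The TNFRSF6B probe C089R112 had log2 ratios of -1.33, -1.80, -2.80 and -1.80 at Day 5 and 0.23, 0.50, 0.53 and 1.28 at Day 1. Its change was -2.57 ± 0.35 (SE of the fit). The 2 TNFRSF11B probes changed by -1.82 ± 0.37 and -2.02 ± 0.36. JUN was not well above background in any Day 5 sample and was at least 4.20-fold lower. CEBPD, a transcription factor of the acute inflammatory response, had -2.51 ± 0.56 at C044R110, and its other probe was not well above background in any Day 5 sample and was at least 3.46-fold lower. Neither passed.

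**Figure D4:**
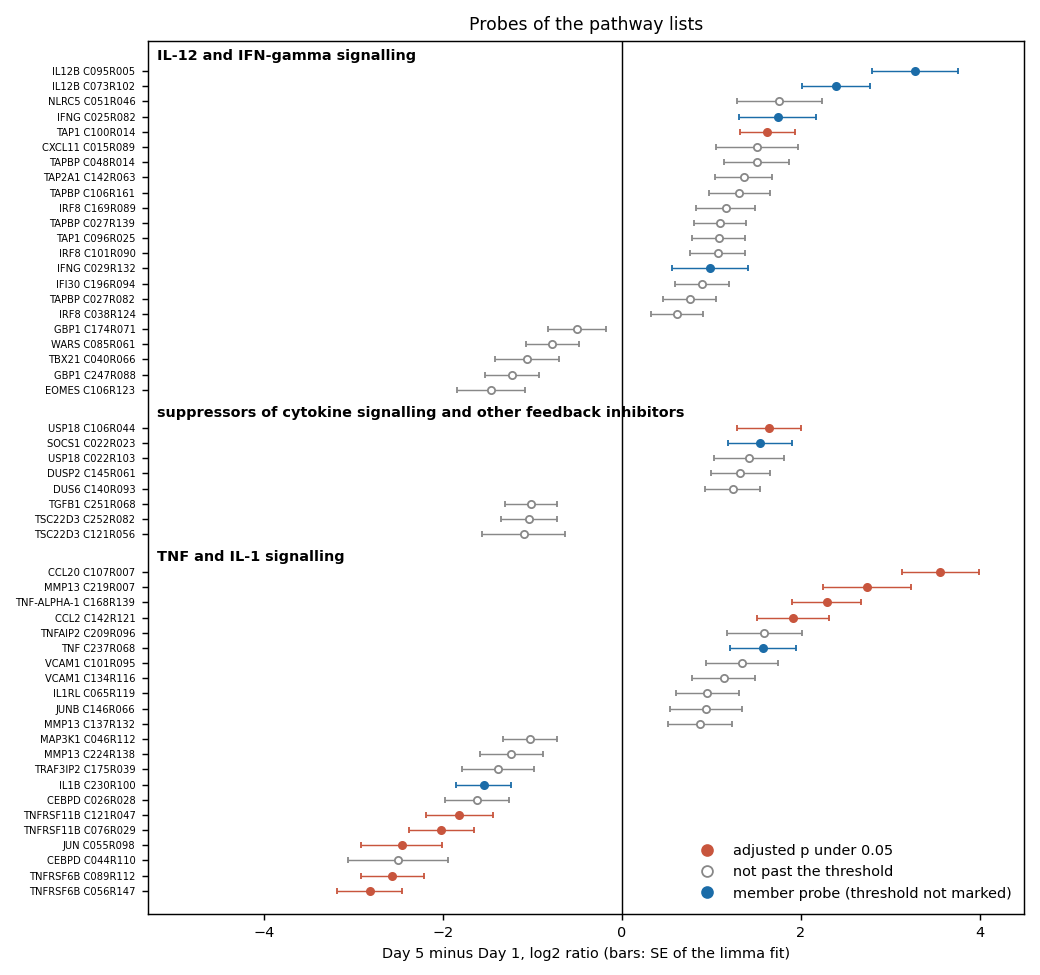
Day 5 minus Day 1 change in log2 ratio (horizontal axis; bars are the SE of the limma fit) of the probes of the 3 pathway lists, without those of 1 gene whose values are not given. Most interleukin-12 and interferon-gamma probes lie right of 0, whereas the TNF and interleukin-1 probes are split 11 to 11, with TNF on the right and IL1B on the left.

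Markers of cell types also moved between the days, and their part in the members' values was not tested. They too could be named only through the study's list, so a marker outside it is absent and the counts are descriptions. Of 25 T and NK cell marker probes (14 genes), 24 were lower and 1 (CRTAM) higher at Day 5. Only 2 of the lower probes passed the threshold, and CRTAM passed as higher with 2.33. The mean log2 ratio of the 25 probes was -1.19 to -0.23 in the Day 5 samples and -0.23 to 1.05 in the Day 1 samples. All 22 monocyte and macrophage marker probes (7 genes) were higher, 11 of them past the threshold, with means of 0.23 to 0.80 at Day 5 and -1.39 to -0.97 at Day 1. Of 8 neutrophil marker probes (6 genes), 5 were lower and 3 higher, and 2 passed in each direction. Their means were -0.71 to -0.35 at Day 5 and -0.46 to -0.12 at Day 1. B cell markers were lower in 54 of 55 probes (7 genes), erythroid markers in 20 of 21 (11 genes) and thrombocyte markers in 8 of 11 (5 genes). The other B cell probe, for CD22, passed as higher and was at least 4.90-fold higher. As lower, 31 B cell, 15 erythroid and 1 thrombocyte probes passed, and 2 thrombocyte probes passed as higher. Of the probes in these lists, 3 for T and NK cells, 2 for monocytes and macrophages, 1 for neutrophils, 10 for B cells, 7 for erythroid cells and 2 for thrombocytes were not well above background in any sample of at least 1 day. On average over the fish, IFNG was thus higher on the day when most T and NK cell marker probes were lower. IL1B was lower on the day when the macrophage markers were higher and most T and NK cell, B cell and erythroid marker probes were lower. With only 2 days, every marker can be set beside every member in this way. These statements compare the days and not the fish within a day, and in Fish 4 the IFNG probe C025R082 did not rise (-0.07).

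The probes most like each member were found by the root mean square difference of log2 ratios, centred on each probe's mean over the 8 arrays, among 1710 to 1727 named probes of other genes. All of these were named through the list of probes that differed between the days. Likeness here thus includes a similar change between the days, and does not by itself show a shared pattern over fish. For the IL12B probe C073R102 they were CCL2 (0.31), CRTAM (0.36), a surface receptor of activated T and NK cells, and TNF-ALPHA-1 (0.37). C095R005 had more distant neighbours, ITPR1 (0.60), SCIN (0.61) and HBEGF (0.62). The IFNG probe C025R082 was nearest to IRF7 (0.30), a transcription factor of the interferon response, to TNFAIP2 (0.35) and to PRP12 (0.36), and C029R132, over the 7 arrays it has, to CEACAM18 (0.13), SERINC5 (0.24) and PIM3 (0.25). TNF was nearest to SDF4 (0.25), TNNT3 (0.32) and NDUFB8 (0.32), and SOCS1 to VDAC2 (0.29), PRP12 (0.30) and PECR (0.31). IL1B was nearest to IGHA2 (0.26), PGBD4 (0.26) and IGLL1 (0.27), and 2 of these, IGHA2 and IGLL1, are named for immunoglobulin chains. No member was among the nearest probes of a member of another gene, and probes of the same gene were not compared.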

How the data were processed

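Per the labels and the study's methods, amplified RNA of 8 samples (Cy5) and of a pool of all samples (Cy3) was hybridised to a 44K salmonid array, scanned, and read with Imagene 9.0. The authors deposited the signal and background intensity of each spot, not corrected or normalized, and marked poor spots. A second deposited table held processed log2 ratios (18108 probes), background-corrected, loess-normalized, filtered for spot quality and with missing values imputed. Set beside the scanner ratios, these correlated at r = 0.765 to 0.887 with medians of -0.08 to -0.02, so they run as Cy5 over Cy3 on a log2 scale. The genome build was not used here. The study's columns of fold changes and q-values were not used, only the symbols and contig sequences, and RefSeq gene names (Ssal_v3.1) were matched by transcript.

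Signal means were corrected for the background median with normexp (offset 50) and normalized by loess within arrays in limma 3.58.1 (R 4.3.3; statmod 1.5.0), with control spots at a weight of 0. Flagged spots (4.44% to 11.9% of an array) were set to missing, and 40699 of 43689 probes, those missing in at most 25% of arrays, were kept. The days were contrasted with lmFit and eBayes, in which fish was a block because both samples of a number came from 1 fish and the study tested in pairs. Deviations from the day means correlated at -0.06, -0.08, 0.07 and 0.04 within Fish 1 to Fish 4, and the pairing therefore rests on origin alone. P-values were adjusted by Benjamini-Hochberg over all tested probes. The number of arrays limits the precision, with 40.4% to 51.3% of probes above the negative-control limit in Cy5. A probe at or under that limit in all samples of a day has only a bound, which is open to dye bias. It sets the mean on the other day against the signal on the dim arrays, after loess and Aquantile. That signal was as measured, or the lowest signal above the limit on the array where this was higher. For JUN, TBX21, MMP13 (C224R138) and CEBPD (C026R028), the measured signal was used. Their bounds are thus the fold as measured and are not set by the limit. The fit was tested on simulated data.

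The members and lists were chosen with earlier results of these data known. The text names all members, TNF-ALPHA-1, probes of the 3 pathway lists (their counts include 1 gene whose values are not reported here), and for each member the 3 probes of other genes with the most similar log2 ratios that exceeded the limit on at least 4 arrays. Alternatives covered background correction, offset, normalization, quality filters, missing values, the authors' values, fish and slide as blocks, and each fish left out. Figures were drawn with matplotlib.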

Additional observations from a re-analysis of the deposited data

Results flagged for a closer look

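The Day 5 value of SOCS1 in Fish 2, 1.33, stood apart from those of the other fish, which lay between -0.58 and -0.29, by Dixon's criterion for groups of 4. The SOCS1 Cy5 signal of the other fish at Day 5 was only 0.94 to 1.24 times the negative-control limit, against 3.71 in Fish 2. Chance marks about 1 in 20 groups in this way. Fish 2 also had the highest Day 5 value of the other probes that were higher at Day 5. The cause was not tested.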

How the results depend on the processing

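Of 132 values of the members' change under the alternatives, all kept their direction and 128 moved by less than 1 SD between fish. The other 4 were within slides: in slide 2, IL12B had 1.66 (C095R005) and 1.31 (C073R102) and TNF 0.30, and in slide 1, IL1B had -0.93. Each of these sets a single Day 5 sample against the mean of the slide's Day 1 samples, so it is not paired by fish. Whether the slide itself contributes was not tested. Leaving out each fish gave 2.65 to 3.70 and 2.07 to 2.75 for IL12B (C095R005 and C073R102), 1.49 to 2.34 and 0.44 to 1.37 for IFNG (C025R082 and C029R132), 1.30 to 1.88 for TNF, 1.22 to 1.87 for SOCS1 and -1.67 to -1.37 for IL1B. The 3 of 7 members past the limma threshold became 0 with plain background subtraction, with no background correction and with an offset of 10, settings under which 0 of all probes passed. They became 0 with slide as a fixed block in place of fish, where 46 of all probes passed against 627. Slide 3 held only Day 5 samples, so that contrast rests on slides 1 and 2 alone. The members past the threshold were 5 with scale normalization between arrays or with spots above the negative controls, and 6 with the authors' processed log2 ratios. They were 2 or 3 when a fish was left out, with 108 (without Fish 4) to 643 of all probes. Of all probes, 990 of 22380 passed with spots above the negative controls and 1068 of 18108 with the authors' values. With no replicate block, so without the pairing, 3 members and 831 of all probes passed. Requiring spots to exceed their local background by 2 SD in both channels, chosen after seeing the data, gave 4 members. Between fish, 0 members passed under every alternative run. Values rest on at most 4 fish. Those of IL12B, IFNG, SOCS1 and TNF-ALPHA-1 rest on Day 1 signals that mostly lay near the negative-control limit. At Day 5, the signals of SOCS1 and of the IFNG probe C029R132 also lay near it in every fish except Fish 2.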
